A study of Mus musculus with 6 samples.

Results

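The D cyclins, their kinase partners and the brakes that act on them were followed in prostates of AR3 transgenic (AR3Tg) and wild-type mice. The set was drawn up as 10 gene symbols (Ccnd1, Ccnd2, Ccnd3, Cdk4, Cdk6, Cdkn1a, Cdkn1b, Cdkn1c, Rb1 and Trp53). A gene entered through a probe set that carries its symbol and no other, and where a gene had several, the one brightest on average across the 6 arrays was used. This gave 8 genes of the 19938 that could be followed on the array. Cdkn1a was covered only by a probe set whose annotation also names a second gene, and no probe set carries the symbol Trp53 in the annotation used here, so no value is given for these genes, which are not analysed here. The series held dissected prostates of 3 AR3Tg mice and of 3 wild-type littermates, all 4 weeks old, with 1 array per mouse. The sources used here do not give the promoter that drives the transgene, the strain or the number of transgenic lines. The labels name each sample as a separate mouse, so the p-values measure the spread between mice.

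D cyclins are the regulatory subunits that cells make in response to growth signals. They bind and activate the kinases Cdk4 and Cdk6, which phosphorylate the retinoblastoma protein Rb1 and thereby release E2F transcription factors that drive entry into DNA synthesis. The Cip/Kip proteins Cdkn1a (p21), Cdkn1b (p27) and Cdkn1c (p57) bind cyclin-kinase complexes and restrain them, and p53, the product of Trp53, induces Cdkn1a after DNA damage. In the prostate, androgen regulates both the growth of the epithelium and its withdrawal from the cycle as it matures, and mice of this age are in puberty.

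Sequence 5′ of the annotated start was looked up for the 8 measured genes, to show which common promoter elements the kinase and inhibitor genes carry. RefSeq windows (GRCm38.p6) were matched for 4 of them (Cdk4, Cdk6, Cdkn1b and Ccnd3, 5 windows) and not for Ccnd1, Ccnd2, Cdkn1c and Rb1. The 250 bases before the start of Cdk4, chr10:127063285-127063534, plus strand, and of Cdkn1b, chr6:134920151-134920400, plus strand, are given below as the windows of a kinase and of an inhibitor, with capitals for E-boxes (CACGTG), GC boxes (GGGCGG) and CCAAT boxes (CCAAT), on either strand.
Cdk4: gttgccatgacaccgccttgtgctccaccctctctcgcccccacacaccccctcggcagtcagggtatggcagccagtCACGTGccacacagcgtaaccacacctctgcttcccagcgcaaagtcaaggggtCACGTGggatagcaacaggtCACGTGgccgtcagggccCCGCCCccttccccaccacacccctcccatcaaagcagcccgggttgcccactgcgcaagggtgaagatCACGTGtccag
Cdkn1b: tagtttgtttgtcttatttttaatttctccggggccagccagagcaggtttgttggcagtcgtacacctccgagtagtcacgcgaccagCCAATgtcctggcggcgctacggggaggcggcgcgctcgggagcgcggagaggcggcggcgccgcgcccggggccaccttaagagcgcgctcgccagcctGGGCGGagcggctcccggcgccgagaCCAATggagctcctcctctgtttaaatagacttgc
The Cdk4 window held 4 E-boxes, the hexamer read by Myc and other bHLH factors, and 1 GC box. An E-box was present in 6.02% of all 32851 windows of the same length. The Cdkn1b window held 2 CCAAT boxes and 1 GC box, elements present in 33.8% and 32.7% of all windows, and no E-box. E2F sites (TTTCGCGC, TTTGGCGC, TTTCCCGC or TTTGCCGC, either strand) were in none of the 5 windows and in 1.86% of all windows. A match of letters is a description of the window and was not tested as a binding site.

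Of the 8 measured genes, Ccnd2 and the inhibitor gene Cdkn1c rose in AR3Tg prostates, by 1.62-fold and 1.46-fold. No measured member fell past the threshold. Cdk4, Cdk6, Rb1, Cdkn1b, Ccnd1 and Ccnd3 did not pass it. Changes are differences of log2(intensity + 16), AR3Tg minus wild-type, tested with limma, and a gene was called at a Benjamini-Hochberg adjusted p under 0.05 over all 28944 probe sets other than controls. In the same fit 1.18% of the 19938 genes were called higher and 1.64% in either direction, as were 1.47% of all probe sets (305 higher and 120 lower, or 314 higher and 264 lower with median centring). The median change was 0.07 over the 8 members and 0.01 over all genes. Both genotypes' values were separate in 3 members, with Ccnd2 and Cdkn1c higher and Ccnd3 lower, while 10.5% of all genes lay wholly higher and 8.61% wholly lower, 19.1% in all. All members were brighter on every array, from 157 to 2021, than the 95th percentile of 1035 olfactory receptor probe sets, which served as a scale of background and lay between 66.9 and 91.9.

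**Figure D1:**
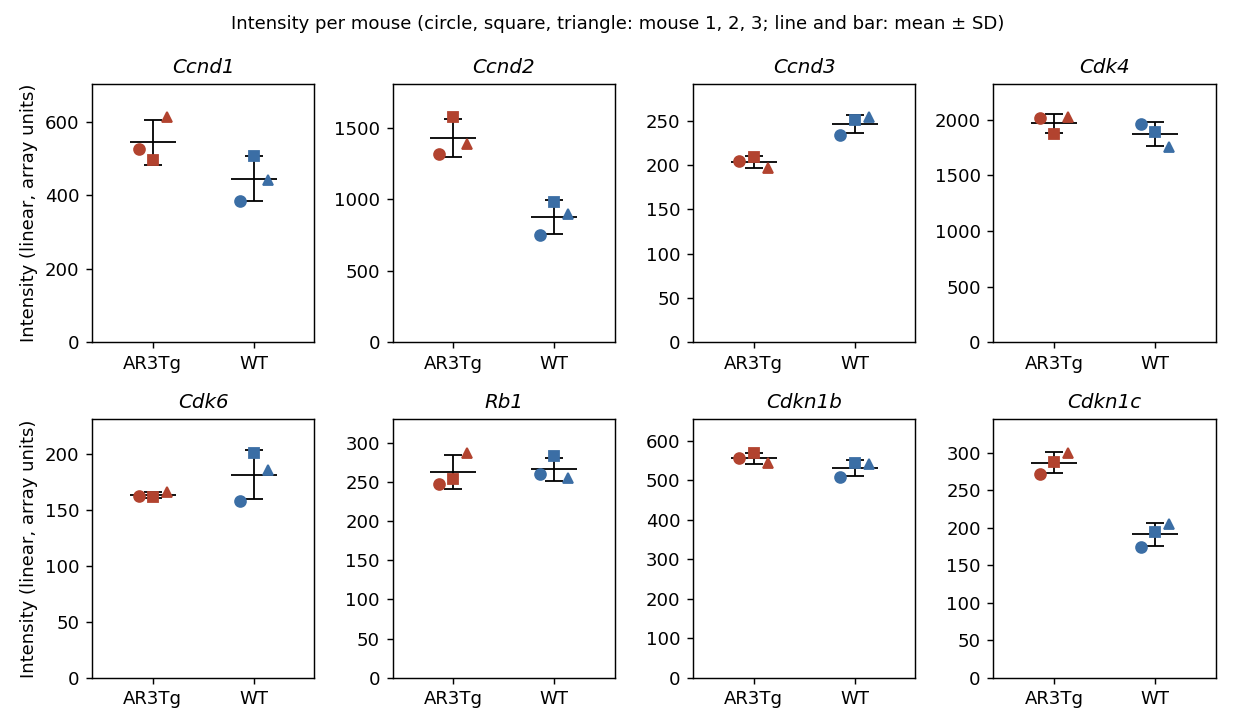
Deposited intensity on a linear scale (y axes from 0, 1 panel per gene) in AR3Tg mice (red, left) and wild-type mice (blue, right), with a symbol for each mouse and the mean ± SD (n = 3 per genotype). The genotypes do not overlap for Ccnd2, Ccnd3 and Cdkn1c and overlap for the other 5 genes.

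Ccnd2, which encodes a D cyclin, had intensities of 1319, 1575 and 1389 in AR3Tg mice 1, 2 and 3, against 748, 981 and 901 in wild-type mice 1, 2 and 3. Every AR3Tg prostate lay above every wild-type prostate, and the lowest of all was wild-type mouse 1. The means were 1428 ± 132 in AR3Tg and 876 ± 119 in wild-type prostates (SD, n = 3 each), and the log2 change was 0.70 ± 0.12 (SE), with a 95% interval of 0.42 to 0.98 and an adjusted p of 0.035 (limma). In bulk tissue, more cells of a type and more RNA per cell cannot be told apart. The call held without wild-type replicate 1 (adjusted p 0.044) and was lost without AR3Tg replicate 1 (0.083), 2 (0.165) or 3 (0.150) or wild-type replicate 2 (0.058) or 3 (0.072), with changes between 0.59 and 0.78. It was also lost with an added constant of 1 (0.072) and with control probe sets kept in the fit (0.072).

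Ccnd1, the D cyclin most studied as a growth factor and Wnt target, had intensities of 526, 495 and 612 in AR3Tg mice, against 385, 507 and 443 in wild-type mice. The genotypes overlapped, since AR3Tg mouse 2 lay below wild-type mouse 2. The log2 change of 0.29 ± 0.12 had a 95% interval of -0.00023 to 0.57 and an adjusted p of 0.41. It was 0.19 without wild-type replicate 1, 0.17 with array weights, and 0.10 without wild-type replicate 1 and AR3Tg replicate 3. Ccnd3, the third D cyclin, had intensities of 204, 209.5 and 197 in AR3Tg mice, against 234, 251 and 254 in wild-type mice. Its AR3Tg values all lay below its wild-type values, with a log2 change of -0.26 ± 0.07 (95% interval -0.43 to -0.08). That change did not pass the threshold (adjusted p 0.21), although it did with array weights (0.04995).

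**Figure D2:**
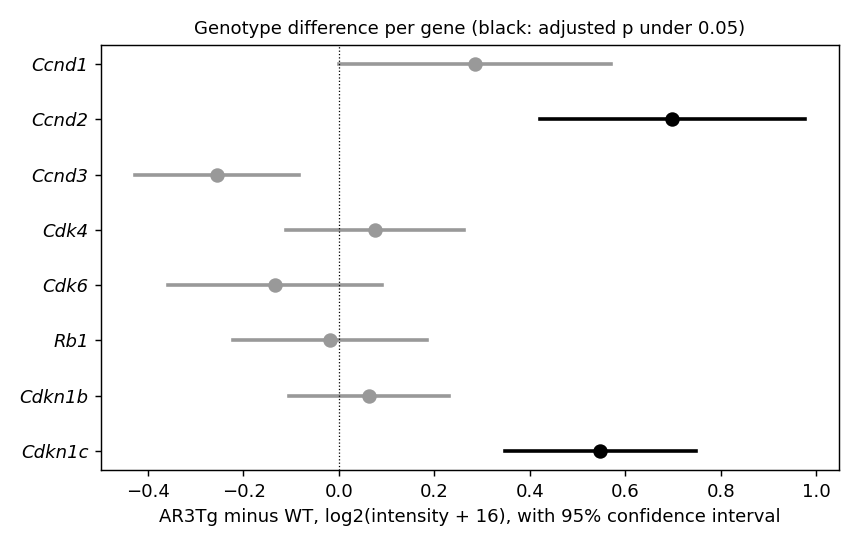
Difference between AR3Tg and wild-type prostates on the log2(intensity + 16) scale (x axis) for each of the 8 genes (y axis), as points with 95% confidence intervals from limma, black where the adjusted p was under 0.05. Ccnd2 (0.70) and Cdkn1c (0.55) stand right of 0, Ccnd3 (-0.26) left of it, and the intervals of the other 5 genes include 0.

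Whether the D cyclins differed from one another in their genotype difference was asked within arrays, as the log2 difference between a pair of the genes set to 0 at the wild-type mean. Ccnd2 minus Ccnd1 lay at 0.35, 0.68 and 0.21 in AR3Tg mice 1, 2 and 3, against -0.024, -0.023 and 0.046 in wild-type mice. Ccnd2 minus Ccnd3 lay at 0.84, 1.06 and 0.97 in AR3Tg mice, against -0.15, 0.14 and 0.01 in wild-type mice. Ccnd1 minus Ccnd3 lay at 0.49, 0.38 and 0.76 in AR3Tg mice, against -0.12, 0.16 and -0.04 in wild-type mice. In all 3 pairs the genotypes did not overlap. For Ccnd2 minus Ccnd3 this follows from the separate values of each gene, and the third pair follows from the other two, so the pairs are a description and not independent results. The shifts between genotypes were 0.41, 0.95 and 0.54. The exact permutation test over the 20 splits of the 6 arrays, two-sided, gave p = 0.1 for each pair, also after adjustment over the 3 pairs, which is the smallest value this design allows, so none could pass 0.05.

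**Figure D3:**
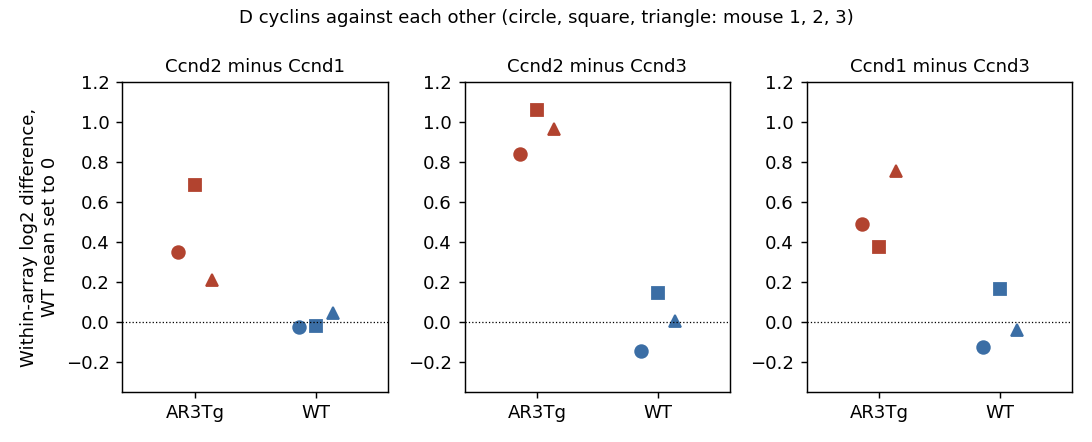
Within-array log2 difference between 2 D cyclins, with the wild-type mean set to 0 (y axis), in AR3Tg mice (red, left) and wild-type mice (blue, right), a symbol for each mouse. All AR3Tg points lie above all wild-type points in each panel, and the widest shift is that of Ccnd2 minus Ccnd3 (0.95).

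Among the kinase partners, Cdk4 had intensities of 2012, 1871 and 2021 in AR3Tg mice, against 1964, 1891 and 1750.4 in wild-type mice. Its log2 change was 0.08 ± 0.08, with a 95% interval of -0.11 to 0.26 and an adjusted p of 0.76. Cdk6, the other kinase of the D cyclins, had intensities of 162, 161 and 166 in AR3Tg mice, against 157, 201 and 185 in wild-type mice. The AR3Tg values spanned a narrow range inside that of the wild-type values, and the log2 change was -0.13 ± 0.10 (95% interval -0.36 to 0.09, adjusted p 0.64). Myc, which encodes a factor that reads E-boxes such as those printed above for Cdk4, had a log2 change of 0.01 ± 0.08.

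Rb1, the substrate of these kinases, had intensities of 247, 254 and 287 in AR3Tg mice, against 260.2, 283 and 255 in wild-type mice. The genotypes overlapped, and the change of -0.02 ± 0.09 (95% interval -0.22 to 0.18, adjusted p 0.96) turned positive, up to 0.024, without AR3Tg replicate 1 or 2 or wild-type replicate 2. The array reads transcript level only, so the phosphorylation that switches Rb1 was not measured.

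Of the brakes, Cdkn1c, an imprinted gene expressed from the maternal allele, had intensities of 272, 287 and 299.8 in AR3Tg mice, against 174, 194 and 205 in wild-type mice. Every AR3Tg value lay above every wild-type value. The means were 286 ± 13.9 in AR3Tg and 191 ± 15.7 in wild-type prostates (SD, n = 3 each), and the log2 change was 0.55 ± 0.09 (95% interval 0.35 to 0.75, adjusted p 0.024). The call held without wild-type replicate 1 (0.039) or 3 (0.032) and was lost without AR3Tg replicate 1 (0.074), 2 (0.130) or 3 (0.146) or wild-type replicate 2 (0.103), with changes between 0.49 and 0.60. Cdkn1b, the Kip inhibitor that accumulates in resting cells, had intensities of 556, 570.05 and 543 in AR3Tg mice, against 509, 544 and 542 in wild-type mice. The genotypes overlapped, with a log2 change of 0.06 ± 0.07 (95% interval -0.10 to 0.23, adjusted p 0.78). A second, dimmer Cdkn1b probe set had intensities of 285, 245 and 243 in AR3Tg mice, against 215, 282 and 309 in wild-type mice. Its log2 change of -0.05 ± 0.14 had the opposite sign and likewise did not pass the threshold (adjusted p 0.93).

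Across single mice, wild-type mouse 1 had the lowest wild-type value in 6 of the 8 genes, and AR3Tg mouse 3 the highest AR3Tg value in 5 of the 8. The median intensity of wild-type mouse 1 over all probe sets, 94.5, was also the lowest of the 6 arrays, whose medians ran up to 110.8. Of the 8 listed seminal vesicle genes, Svs2, Svs4 and Svs5 set the same arrays apart. Their mean log2 level was 7.53, 5.53 and 10.54 in AR3Tg mice 1, 2 and 3. In wild-type mice 1, 2 and 3 it was 10.05, 5.36 and 5.42. Pate4 was likewise highest in AR3Tg mouse 3 and wild-type mouse 1 within their genotypes. Svs6 was lowest in both (26.1 and 40.4), and Svs1, Svs3a and Svs3b did not follow the pattern. With wild-type mouse 1 and AR3Tg mouse 3 both left out, Ccnd2 had a log2 change of 0.61 (adjusted p 0.167) and Cdkn1c of 0.46 (0.174), and 0 members were called by limma among 2 mice per genotype. Over the 6 arrays the log2 levels of Ccnd2 and Cdkn1c correlated with a Pearson r of 0.96, a value that holds the genotype difference of both, and with r = 0.67 after each genotype's mean was taken away. These arrays are shared by both genes, and the correlations are given as a description.

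The genes most like Ccnd2 over the 6 arrays, by Pearson correlation among 10113 genes with a mean log2 level of at least 7, were Commd4 (0.996), the sodium pump subunit gene Atp1b1 (0.992), Tsc22d1 (0.992), Prss53 (0.991) and the Wnt co-receptor gene Lrp5 (0.991). None of these 5 was called, and their log2 changes lay between 0.14 and 0.36. The genes most like Cdkn1c were the planar polarity gene Vangl1 (0.998), Tcim (0.995), Isoc1 (0.995), Usp6nl (0.994) and Fam161a (0.994). Tcim was called, with a change of 1.19 on the log2 scale (adjusted p 0.0039), and the changes of the other 4 lay between 0.32 and 0.40. With 6 arrays such values are common, and 110 genes correlated above 0.95 with Ccnd2 and 171 with Cdkn1c.

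The chromosomal neighbours of both called genes were examined after their own values were seen. Among the 3 measured genes on each side of Ccnd2, Tigar, which encodes a fructose bisphosphatase that limits glycolysis, had intensities of 162, 188 and 169.5 in AR3Tg mice, against 119, 140.5 and 143 in wild-type mice. The genotypes did not overlap, but the log2 change of 0.33 ± 0.10 did not pass the threshold (adjusted p 0.21), nor did those of Fgf6, Fgf23, Parp11, Cracr2a and Prmt8, which ran from -0.37 to 0.14. Beside Cdkn1c, the potassium channel gene Kcnq1, which lies in the same imprinted region, had intensities of 185, 199.6 and 204 in AR3Tg mice, against 122, 148 and 152 in wild-type mice. Its log2 change was 0.44 ± 0.10 (adjusted p 0.097). The imprinted genes Phlda2 (0.18) and Slc22a18 (-0.05) and the neighbours Tssc4, Trpm5 and Nap1l4 had changes between -0.11 and 0.18 and were not called either.

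**Figure D4:**
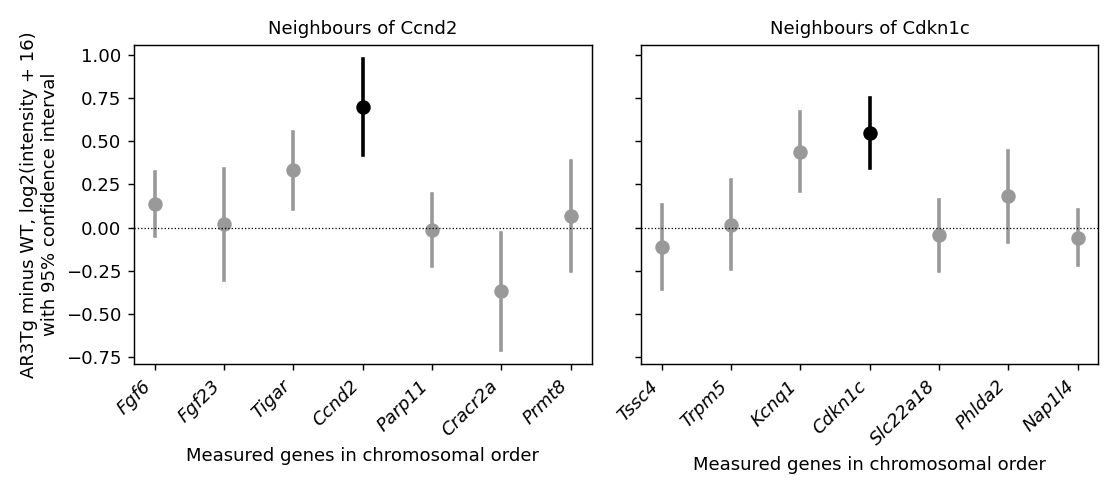
Difference between AR3Tg and wild-type prostates on the log2(intensity + 16) scale with 95% confidence intervals (y axis) for Ccnd2, Cdkn1c and the 3 nearest measured genes on each side, in chromosomal order (x axis, not to scale). Only Ccnd2 and Cdkn1c (black) passed an adjusted p of 0.05 among these genes, and Tigar (0.33), Kcnq1 (0.44) and Cracr2a (-0.37) did not.

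Other genes of the pathway were counted on 7 lists with 151 distinct measured genes, of which 4 were called higher and 0 lower, or 2.65%, against 1.64% of all genes. An unadjusted p under 0.05 was reached by 21 of the 151 and by 12.2% of all genes, the background for such counts in each list. Of 14 measured cyclin and kinase partners of the G1/S step, none was called by limma and 2 had an unadjusted p under 0.05. These were Mnat1, an assembly factor of the Cdk-activating kinase (log2 change -0.25 ± 0.08, adjusted p 0.27), and the mitotic kinase gene Cdk1 (-0.30 ± 0.13, adjusted p 0.40). Of 15 genes of the INK4 inhibitors and of inhibitor turnover, none was called and 2 had an unadjusted p under 0.05, the INK4 gene Cdkn2c (-0.23 ± 0.08, adjusted p 0.29) and Cks1b, a cofactor of Cdkn1b degradation (-0.20 ± 0.08, adjusted p 0.39). Of 18 pocket protein, E2F and DREAM complex genes, none was called and 2 had an unadjusted p under 0.05, the pocket protein gene Rbl2 (0.26 ± 0.08, adjusted p 0.25) and the DREAM subunit gene Lin37 (-0.23 ± 0.09, adjusted p 0.34). The median changes of these lists were 0.01, -0.08 and -0.04, against 0.01 for all genes.

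Genes that mark cells in cycle were counted next. Of 36 measured E2F and proliferation genes, among them replication and mitosis genes, none was called by limma and 3 had an unadjusted p under 0.05. Means below 66.9 were found for 8, and the list's median change was -0.01. The value of 66.9 is the lowest of the 6 background values, which ran up to 91.9, so further genes lay within the background scale. The spindle checkpoint kinase gene Bub1b had intensities of 147, 144 and 134 in AR3Tg mice, against 184, 181 and 223 in wild-type mice, a change of -0.42 ± 0.10 on the log2 scale (adjusted p 0.114). The thymidine kinase gene Tk1 lay the other way, at 262, 244 and 220.2 in AR3Tg mice, against 195, 192 and 194 in wild-type mice, with a change of 0.30 ± 0.08 on the log2 scale (adjusted p 0.20). The proliferation marker Mki67 was dim in both genotypes, at 53.1, 63.1 and 54.6 in AR3Tg mice and 59.8, 81.8 and 62.5 in wild-type mice. The summed intensity of the list ran from 4451 to 4616 in AR3Tg prostates and from 4144 to 4772 in wild-type prostates, and the ranges overlapped.

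On the p53 side, of 13 measured regulators none was called by limma and 0 had an unadjusted p under 0.05. Among them, the checkpoint kinase gene Chek1 had a log2 change of 0.23 ± 0.10 (adjusted p 0.42) and the ubiquitin ligase gene Rchy1 of -0.16 ± 0.08 (adjusted p 0.47). Of 23 measured p53 target genes 3 were higher, 0 lower and 20 not called, with a median change of 0.02. An unadjusted p under 0.05 was reached by 6 of the 23 (12.2% of all genes). Wholly above wild-type lay 6 of them and wholly below 1 (10.5% and 8.61% of all genes). The list's sum, in which the brightest genes weigh most, ran from 10418 to 10749 in AR3Tg and from 9054 to 9282 in wild-type prostates. Sums of the G1/S partners did not overlap either (4071 to 4190 in AR3Tg, 3932 to 3986 in wild-type). Nor did those of the inputs to D cyclin transcription given below (16521 to 17331 in AR3Tg, 14945 to 15729 in wild-type). The sums of the remaining pathway lists overlapped. Plk2, a polo-like kinase gene, had intensities of 239, 248 and 242 in AR3Tg mice, against 167, 157 and 141 in wild-type mice, a change of 0.60 ± 0.08 on the log2 scale (adjusted p 0.012). Ei24 had intensities of 1244, 1163 and 1257 in AR3Tg mice, against 847, 891 and 891 in wild-type mice, a change of 0.47 ± 0.07 on the log2 scale (adjusted p 0.023). Perp, whose product is also a desmosome component of stratified epithelia, had a change of 0.48 ± 0.09 on the log2 scale (adjusted p 0.044). The genotypes did not overlap for these 3 genes. Sesn1 (0.37 ± 0.08, adjusted p 0.080), Trp53inp1 (0.36 ± 0.13, adjusted p 0.31) and Ccng1 (0.14 ± 0.07, adjusted p 0.50) also lay wholly above wild-type and were not called. Btg2, an antiproliferative gene, lay the other way, at 212, 202 and 239 in AR3Tg mice, against 284, 319 and 313 in wild-type mice. Its change of -0.46 ± 0.09 was wholly below wild-type and did not pass the threshold (adjusted p 0.066). Mdm2, the p53 ligase gene that is itself a target, had a log2 change of -0.06 ± 0.08. Without single arrays, Plk2 held without wild-type replicate 1 or 3, Ei24 held only without wild-type replicate 1, and Perp lost its call whichever array was left out. The highest adjusted p was 0.080 for Plk2, 0.153 for Ei24 and 0.230 for Perp, and Perp was also lost with an added constant of 1 (0.079) and with control probe sets kept (0.084).

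Of 33 measured inputs to D cyclin transcription (Wnt, MAPK, FoxO, Notch, hedgehog, IGF and nuclear receptor genes), 1 was called higher and 0 lower, while 26 of the 33 changes were positive and the median was 0.10. Of all genes 53.9% were positive, and with median centring 20 of the 33 and 42.5% of all genes were. An unadjusted limma p under 0.05 was reached by 6 of the 33 (12.2% of all genes). Wholly above wild-type lay 8 and wholly below 0 (10.5% and 8.61% of all genes). The list was not sorted into genes that raise or lower D cyclin transcription, so the signs give no direction of input. Igfbp5, which binds insulin-like growth factors, had intensities of 1688, 1783 and 2029 in AR3Tg mice, against 1305, 1086 and 941 in wild-type mice. Its log2 change was 0.72 ± 0.13 (adjusted p 0.047). That call held without wild-type replicate 1 and was lost when any other single array was left out (up to 0.218), with an added constant of 1 (0.090) and with control probe sets kept (0.091).

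**Figure D5:**
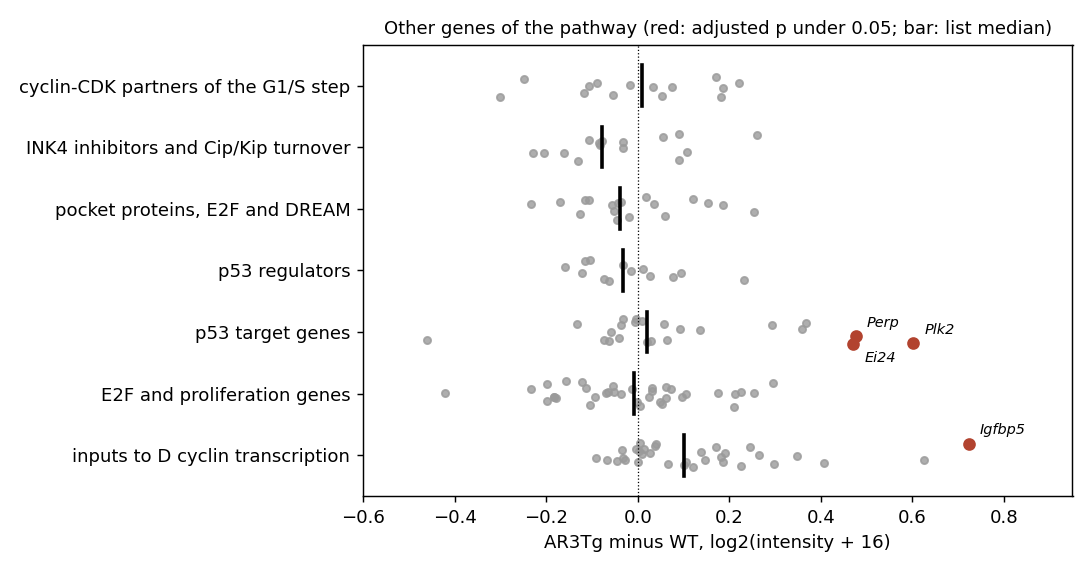
Difference between AR3Tg and wild-type prostates on the log2(intensity + 16) scale (x axis) for every measured gene of 7 pathway lists (y axis), with red for genes at an adjusted p under 0.05 and a bar at the list's median. The 4 called genes, Plk2, Ei24, Perp and Igfbp5, lie between 0.47 and 0.72, and the medians lie between -0.08 and 0.10.

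Markers of the cell types in a dissected prostate were set beside these values. Of 10 measured luminal genes, the spermine-binding protein gene Sbp fell (-0.91 ± 0.09, adjusted p 0.0017), 9 were not called and none had a mean below 66.9. Of the 10 changes 5 were positive, with a median of 0.03, and 2 genes lay wholly above wild-type and 4 wholly below. The prostate secretory gene Pbsn lay between 7927 and 8325 in AR3Tg and between 9066 and 9758 in wild-type prostates. Epcam (0.19) and Cdh1 (0.15) lay wholly above wild-type. The list's sum, in which the brightest genes weigh most, ran from 50067 to 52707 in AR3Tg and from 57152 to 58540 in wild-type prostates. Of 14 myeloid genes the protease gene Ctss rose (0.91 ± 0.16, adjusted p 0.036), 13 were not called, all 14 changes were positive, 2 had means below 66.9, and the sum ran from 1929 to 2566 in AR3Tg and from 1276 to 1670 in wild-type prostates. Among the 13, H2-Aa lay wholly above wild-type (1.10 ± 0.21, adjusted p 0.057). The myeloid ranges did not overlap, and neither did the luminal, endothelial and urothelial ranges. For comparison, 19.1% of all single genes did not overlap and 53.9% of all genes had positive changes. The share of single genes is no background for sums over several genes. Pathway lists given above also had sums that did not overlap. Of 10 endothelial genes the cadherin gene Cdh5 rose (0.93 ± 0.12, adjusted p 0.0096). Its values in wild-type mice 1, 2 and 3 were 107, 86.3 and 75.5, against a background scale of 66.9 to 91.9. The endothelial sum ran from 1397 to 1467 in AR3Tg and from 1127 to 1305 in wild-type prostates, again without overlap and with no mean below 66.9. Of 12 fibroblast genes Gpx3 fell (-0.57 ± 0.08, adjusted p 0.014), 11 of 12 changes were positive with a median of 0.46, and the sum ran from 7003 to 9613 in AR3Tg and from 5734 to 7957 in wild-type prostates, with none below 66.9. The part of the myeloid, endothelial and fibroblast signal in the values of Ccnd2 and Cdkn1c was not tested. None of the 9 basal, 10 smooth muscle, 10 skeletal muscle, 10 lymphoid and 5 urothelial genes was called by limma. In that order, 1, 0, 4, 1 and 1 had an unadjusted p under 0.05 (12.2% of all genes did) and 0, 0, 2, 6 and 0 had means below 66.9. The urothelial sums ran from 2401 to 2927 in AR3Tg and from 3066 to 3786 in wild-type prostates. Of the 5 urothelial genes 1, Upk1a, lay wholly below wild-type (-0.68 ± 0.14, adjusted p 0.083). Of 8 seminal vesicle genes Svs3a fell (-1.43 ± 0.22, adjusted p 0.019). Pate4 lay wholly above wild-type and was not called (3.88 ± 1.09, adjusted p 0.20). The seminal vesicle sum ran from 1626 to 8974 in AR3Tg and from 726 to 4834 in wild-type prostates. Ctss kept its call without wild-type replicate 1 and lost it when any other array was left out (up to 0.175), with an added constant of 1 (0.077), with quantile normalization (0.058) and with control probe sets kept (0.073), Cdh5 without AR3Tg replicate 2 or 3 or wild-type replicate 2 (up to 0.065), Gpx3 without any AR3Tg replicate or wild-type replicate 2 (up to 0.096) and Svs3a without AR3Tg replicate 1 or 3 or wild-type replicate 2 (up to 0.107).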

How the data were processed

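Dissected prostates of 3 AR3Tg and 3 wild-type mice were measured on Affymetrix arrays. Per the labels' protocols, the authors extracted column-purified total RNA, treated it with DNase and biotinylated it with a whole-transcript labelling kit. The deposited table holds 1 intensity per probe set and array on a linear scale, as read from its values. The sources used here do not state the summarisation, background correction or normalization behind them. Array medians ran from 94.5 to 110.8, and the deposited intensities were used without further normalization. Of 35512 probe sets, 6568 below identifier 10344614 were taken for controls and left out. Symbols came from the platform annotation: 21789 tested probe sets had 1 symbol, 1621 several and 5534 none here.

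The values log2(intensity + 16) were fitted with lmFit and eBayes of limma 3.58.1 (R 4.3.3), 3 against 3 arrays without covariates. Every adjusted p is from that fit over 28944 probe sets unless another setting is named. The fit was also run on simulated data with independent noise in each probe set and no shift shared across an array. That simulation therefore does not bear on calls that depend on single arrays. The constant of 16 understates changes of dim genes. Only 3 arrays per genotype limit the precision. The members, lists and rules were chosen with earlier results of these data known. Named were the members, the called genes of each list, and the 5 genes most correlated with each called member. Of pathway lists without a call, the 2 smallest p were named. The 2 smallest p of each cell type list were also planned, but of those not called only H2-Aa, Upk1a and Pate4 are given. Mki67, Myc, Btg2, Mdm2, Sesn1, Trp53inp1, Ccng1, Pbsn, Epcam, Cdh1, Svs2, Svs4, Svs5 and the neighbours were named outside that rule, with their values in view. Alternatives were other constants, quantile normalization, median centring, a filter on the dimmest 40%, an intensity trend, array weights, the mouse number as a block, control probe sets kept, both probe sets of Cdkn1b averaged, and arrays left out. Scan dates were not analysed here.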

Additional observations from a re-analysis of the deposited data

How the results depend on the processing

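The count of called probe sets was 425 (305 higher, 120 lower) and moved by over 1.5 times to 678 when variances were moderated robustly along an intensity trend, 1202 with array weights, 250 with a replicate block for the mouse number, 234 to 519 without single arrays (248 without AR3Tg replicate 2, 234 without AR3Tg replicate 3 and 254 without wild-type replicate 2) and 237 without wild-type replicate 1 and AR3Tg replicate 3 together, a choice added after seeing the data. Median centring gave 314 higher and 264 lower. Of the 8 members, 2 were called, against 1 with an added constant of 1 (Ccnd2 lost), 1 with the block (Cdkn1c lost, adjusted p 0.073), 1 with control probe sets kept (Ccnd2 lost), 0 without both of those arrays, and 0 to 2 without single arrays. Pathway genes called numbered 4, against 2 with an added constant of 1, 7 with 64, 7 without the dimmest 40%, 7 with the intensity trend, 11 with array weights, 0 with the block, 2 with controls kept, 0 without both arrays and 0 to 4 without single arrays, a recount likewise added after seeing the data; the 4 without wild-type replicate 1 did not include Perp. Ccnd2 was called in 9 of 17 settings, with log2 changes from 0.59 to 0.78, and Cdkn1c in 11 of 17, from 0.46 to 0.60. The sign of Rb1 reversed without single arrays, from -0.081 to 0.024 (0.021 without AR3Tg replicate 1, 0.0037 without AR3Tg replicate 2), and the gene was not called in any setting run. The D cyclin differences were rerun with other constants, quantile normalization, median centring and single arrays left out, and kept their direction. Leaving out an array could not reverse them, because the genotypes did not overlap, and median centring cancels within an array. Same-numbered mice deviated with correlations of -0.04, 0.05 and -0.16. With 3 mice per genotype, these values cannot settle whether the numbers pair the mice. Apart from the stated construction of each setting, the cause of these moves was not tested. Leaving out an array leaves 2 mice in its genotype.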

Other observations

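Other cyclins, cyclin-dependent kinases and inhibitors of the INK4 family were counted by symbol, a choice made after the data were seen. Of 22 further cyclin genes measured, 0 were called by limma, with changes from -0.18 to 0.35 and a median of -0.05. The largest was that of Ccnjl, a cyclin J-like gene, at 0.35 with an adjusted p of 0.25. Ccng1, a p53-induced cyclin, had means of 1985 in AR3Tg and 1805 in wild-type prostates and a change of 0.14 with an adjusted p of 0.50. Of 17 further kinase genes 0 were called, with changes from -0.30 (Cdk1) to 0.16 (Cdk5). Of the 4 INK4 genes 0 were called, and Cdkn2b (0.26) and Cdkn2c (-0.23) had changes of opposite sign. Unadjusted p under 0.05 was reached by Ccnjl, Cdk1 and Cdkn2c among these 43 genes, and by 12.2% of all genes.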
